A study of Mus musculus with 8 samples.

Results

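The immediate early AP-1 and EGR genes were chosen by name: Fos, Fosb, Fosl1, Fosl2, Jun, Junb, Jund, Egr1, Ier2 and Atf3. Of these 10 names, 9 matched a row among the 26873 features of the deposited table, none of them more than once, and Ier2 is not analysed here. All 9 passed the low-count filter and were tested with the other genes. Proteins of the Fos and Jun families pair through leucine zippers into AP-1, a dimeric transcription factor, and Atf3 is a related zipper protein of the ATF/CREB family. Egr1 is a zinc finger factor that binds GC-rich DNA. Transcription of several of these genes, Fos and Egr1 above all, starts within minutes of a growth factor, serum or stress signal without new protein synthesis and is soon shut off, while Fosl1 and Jund are known for slower or steadier expression. In bone-forming cells, Fosl1 and Fosl2 are known as regulators of matrix production, and Junb and Jund of proliferation and differentiation.

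The data are messenger RNA libraries of wild-type bone marrow mesenchymal stem cells, which the labels call a cell line, all in osteogenic differentiation. The cells received extracts of polycaprolactone (PCL) scaffolds made in complete DMEM with 10% serum, and 1 library was deposited for each of 4 extracts on day 3 and on day 7, 8 in all. The series names a blank group, S7 and E7 peptide groups and a combined group, which were read as PCL-O (by elimination), PCL-S, PCL-E and PCL-SE. Peptide sequences and doses, and how many cultures stand behind each library, are not given here. The labels give Mus musculus, whereas the 22050 annotated gene identifiers are rat Ensembl ones and 0 are mouse ones, so no species is assigned here and no coordinates were taken from the table.

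Sequencing depth lay between 32950326 total counts (PCL-S day 7) and 41754124 (PCL-E day 7), at which 3 counts are worth 0.0718 to 0.0910 CPM (counts per total of the library, rescaled). The lowest count of any member was 43 for Atf3 in PCL-O day 7 (95% Poisson interval 31.1 to 57.9, counting error only). Levels below are CPM after TMM scaling, called normalised CPM, and comparisons of levels between genes use the deposited FPKM, which are per gene length. The summed level of 10 mesenchymal stromal markers was 21983 to 23388 normalised CPM without S7 and 34070 to 36952 with S7 on day 3, and 16539 to 27732 without and 6081 to 6401 with S7 on day 7. Col1a1, the type I collagen gene, made up most of this sum, and the other 9 markers summed to 1748 to 1933 without and 2061 to 2062 with S7 on day 3, and to 1484 to 1790 without and 1477 to 1519 with S7 on day 7. Of 7 haematopoietic markers in the table only 2 were tested and Cd3e was at 0 (sums 7.29 to 11.2 without S7 and 16.2 to 19.0 with S7 over both days). Cd14 made up most of this sum, at 6.39 to 8.88 without and 15.5 to 18.2 with S7. The other markers reached at most 1.49 (Cd34 in PCL-O day 7). Of 4 endothelial markers 1 was tested, and Cdh5 and Emcn were at 0 (sums 5.80 to 6.70 without and 13.8 to 15.3 with S7 on day 3, and 3.40 to 4.23 on day 7). Tek made up nearly all of the endothelial sum. The part of these marker differences in the results below was not tested. In bulk RNA, fewer cells of a type and less RNA per cell cannot be told apart.

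To show what lies before the start sites of these genes, the 250 bases upstream of the RefSeq start were read from the mouse build GRCm38.p6. By symbol 7 members matched (Fos, Fosb, Fosl2, Jun, Junb, Jund and Atf3). These are mouse sequences, while the identifiers of the count table are rat ones. Jun and Fos are shown as the founding pair of AP-1, and Atf3 for its contrast between days, each written 5′ to 3′ on the gene's own strand. Capitals mark matches to the AP-1 motif TGANTCA, the CRE-like motif TGACNTCA or the short CRE core TGACG, searched on both strands. The last of these can lie inside a TGACNTCA match and would then count under both.
Jun, chr4:95052223-95052472, minus strand: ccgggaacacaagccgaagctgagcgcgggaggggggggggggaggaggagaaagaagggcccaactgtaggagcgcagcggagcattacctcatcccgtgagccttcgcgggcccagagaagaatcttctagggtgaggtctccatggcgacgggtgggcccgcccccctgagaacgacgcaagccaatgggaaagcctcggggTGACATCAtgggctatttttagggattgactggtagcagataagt
Fos, chr12:85473640-85473889, plus strand: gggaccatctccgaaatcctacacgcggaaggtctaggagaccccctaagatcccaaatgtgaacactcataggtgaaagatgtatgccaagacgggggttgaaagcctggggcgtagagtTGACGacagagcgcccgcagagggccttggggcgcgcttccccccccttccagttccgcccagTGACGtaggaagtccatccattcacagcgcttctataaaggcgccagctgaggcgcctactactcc
Atf3, chr1:191183334-191183583, minus strand: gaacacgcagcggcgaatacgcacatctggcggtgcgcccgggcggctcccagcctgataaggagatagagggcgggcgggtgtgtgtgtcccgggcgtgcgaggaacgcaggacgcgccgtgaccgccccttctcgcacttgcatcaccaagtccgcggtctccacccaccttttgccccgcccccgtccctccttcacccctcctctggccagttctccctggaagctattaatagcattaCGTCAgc
Jun held TGACATCA, beginning 45 bases upstream of the start, and was the only 1 of 7 members with a TGACNTCA match, a motif found in 7.49% of 32851 promoters of the same length. The core TGACG was in 4 of 7 members (Atf3 at 7 bases, Fos at 129 and 66, Fosb at 60 and Junb at 106), against 17.8% of all promoters. TGANTCA was in 0 of 7 (6.75% of all), and the CArG box, the site of serum response factor, in 0 of 7 (1.47% of all). These matches are letters in these windows only.

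By deposited FPKM, the members fell into an abundant and a scarce set. Junb had the highest median over the 8 libraries (48.2 FPKM), followed by Jund (43.3), Egr1 (37.7) and Jun (34.6), and the ranges of these neighbours overlapped. Fosl1 (median 14.8), Fosl2 (9.83) and Fos (8.80) came next, again with overlapping ranges, and Fosl1 ranged from 6.56 to 48.0. Atf3 (median 2.47) and Fosb (0.929) were lowest, and the highest Atf3 value, 4.60, lay under the lowest Fos value, 5.45. Across libraries, normalised CPM varied most for Atf3, 7.32-fold from lowest to highest, and for Fosl1, 6.05-fold, and least for Fosl2, 1.28-fold. Fosl2 counts and FPKM together imply a gene model of about 812 bases, the shortest of the 9.

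**Figure D1:**
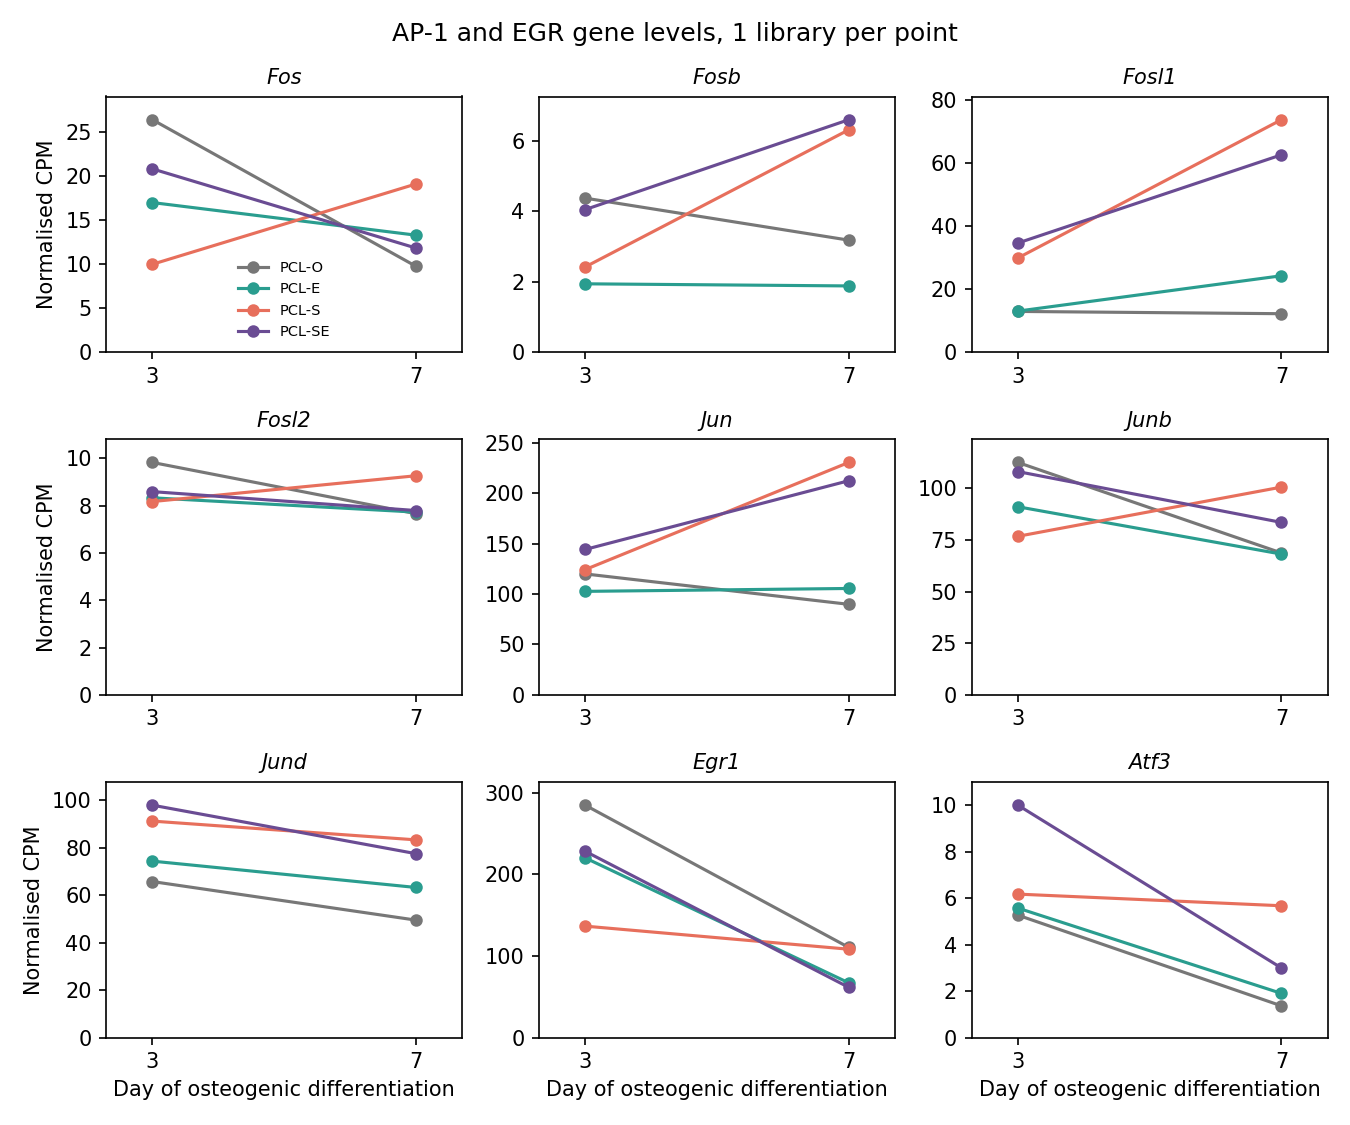
Normalised CPM of the 9 genes (y axis, from 0) on day 3 and day 7 (x axis), 1 library per point, with a line joining the days of each extract. Fosl1 stands at 62.5 and 73.6 in PCL-SE and PCL-S on day 7 against 12.2 and 24.2 in PCL-O and PCL-E, and Egr1 is lower on day 7 than on day 3 in all 4 extracts.

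Whether S7 went with other levels of these genes was asked by setting PCL-S and PCL-SE against PCL-O and PCL-E within each day, in 1 model of all 8 libraries with terms for S7, day, their interaction and E7. The error in this model is how far the pooled extracts differ, so its p-values do not measure variation between cultures. On day 3, Fosl1 and Jund rose with S7. On day 7, Fosl1, Jun, Jund, Atf3 and Fosb rose, and 0 of the 9 fell. These 5 of 9 stand beside 51.0% of all tested genes called on day 7 (24.9% higher and 26.2% lower), and the 2 of 9 on day 3 beside 14.0% (7.10% higher and 6.87% lower). Leaving out any 1 day 3 library leaves 1 library on a side of that day. Fewer of all genes were then called with S7 on day 3 as well. The median fold change of the 9 was 0.10 (log2) on day 3 and 0.52 on day 7, against 0.00 and -0.03 over all tested genes. With and without S7, the 2 libraries of each side did not overlap for 4 of 9 members on day 3 (68.5% of all genes, either direction) and for 7 of 9 on day 7 (75.1% of all genes, either direction).

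Markers of differentiated cells also differed with S7. Of 6 osteoblast markers tested, 1 rose (Runx2) and 0 fell on day 3, and 0 rose and 4 fell on day 7 (Alpl, Ibsp, Dmp1 and Phex; median of the 6 -3.62, log2). On day 7, Alpl, the alkaline phosphatase gene, was at 13.8 and 8.43 normalised CPM in PCL-O and PCL-E and at 0.607 and 1.15 in PCL-S and PCL-SE, while Dmp1, a gene of mineralising matrix, was at 9.47 and 1.69 against 0.158 and 0.392. Ibsp was near the floor, at 0.191 and 0.329 against 0 and 0. The sum of 7 osteoblast markers was 36.1 to 39.3 without and 43.8 to 48.6 with S7 on day 3, and 36.8 to 49.6 without and 27.5 to 32.9 with S7 on day 7. Runx2 made up most of this sum with S7. On day 7 Runx2 was at 20.6 and 23.6 in PCL-O and PCL-E and at 26.3 and 30.4 in PCL-S and PCL-SE. Of 3 adipocyte markers tested, 0 rose and 1 fell on day 3 (Lpl), and on day 7 Pparg and Fabp4 rose (3.17 and 3.68, edgeR adjusted p = 0.00379 and 0.0236) and Lpl fell. Fabp4 was scarce on day 7, at 0 and 0.446 normalised CPM in PCL-O and PCL-E and 3.09 and 1.87 in PCL-S and PCL-SE. The 5 adipocyte markers summed to 18.6 to 32.1 without and 12.5 to 12.7 with S7 on day 3, and to 11.2 to 13.4 without and 12.3 to 16.7 with S7 on day 7, with Adipoq and Plin1 at or near 0. The sum of 6 skeletal muscle markers was 155 to 210 without and 79.0 to 79.4 with S7 on day 3, and 23.5 to 61.0 without and 1.48 to 4.12 with S7 on day 7. Acta1 made up most of this sum. Of 4 skeletal muscle markers tested, 0 rose and 1 fell on day 3, and 1 rose and 2 fell on day 7. The marker calls were not rerun under other settings or with libraries left out. The part of these markers in the differences of the 9 members and of the gene lists with S7 was not tested.

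Among the Fos family, Fosl1, whose protein Fra-1 lacks the transactivation domain of Fos, differed most. On day 3 its normalised CPM was 12.9 (PCL-O), 13.0 (PCL-E), 29.8 (PCL-S) and 34.6 (PCL-SE). On day 7 it was 12.2 (PCL-O), 24.2 (PCL-E), 73.6 (PCL-S) and 62.5 (PCL-SE). Both libraries with S7 were higher than both without it on each day, and PCL-E was close to PCL-O on day 3 and above it on day 7. With S7, Fosl1 was 32.2 ± 3.35 against 13.0 ± 0.0725 normalised CPM on day 3 (mean ± SD over 2 libraries a side), a log2 fold change of 1.31 ± 0.27 (SE; adjusted p = 0.0220 by edgeR's quasi-likelihood test). On day 7 it was 68.1 ± 7.87 against 18.2 ± 8.50 (1.94 ± 0.26, adjusted p = 0.00136). The day 7 call was kept without any 1 library, whereas the day 3 call was lost without any 1 of the day 3 libraries. The day 3 fold change was then 1.17 to 1.45. Between single libraries of day 7, Fosl1 was higher by 2.42 (log2 ratio with 2 CPM added) in PCL-S than in PCL-O, by 2.19 in PCL-SE than in PCL-O and by 1.30 in PCL-SE than in PCL-E.

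Fosb, a Fos relative, had the lowest median FPKM. Its normalised CPM was 4.37 (PCL-O), 1.94 (PCL-E), 2.42 (PCL-S) and 4.05 (PCL-SE) on day 3, and 3.18, 1.88, 6.31 and 6.60 in the same order on day 7. The groups overlapped on day 3, and on day 7 both libraries with S7 lay above both without. Fosb rose with S7 on day 7 (6.45 ± 0.203 against 2.53 ± 0.919, n = 2 libraries each; log2 fold change 1.39 ± 0.43, adjusted p = 0.0331 by edgeR). The call was lost without PCL-S day 7 (adjusted p = 0.0871), PCL-E day 7 (0.134) or PCL-SE day 7 (0.162), and with an E7 by day term added (0.0550). Its counts were 64 to 286.

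Fos itself, the classical immediate early member, did not pass the test in any comparison. Its normalised CPM was 26.4 (PCL-O), 17.0 (PCL-E), 9.99 (PCL-S) and 20.8 (PCL-SE) on day 3, and 9.76, 13.3, 19.1 and 11.8 in the same order on day 7. PCL-S was the lowest library on day 3 and the highest on day 7, and the groups with and without S7 overlapped on both days. The fold change with S7 was -0.51 ± 0.42 (log2, edgeR adjusted p = 0.477) on day 3 and 0.42 ± 0.42 (adjusted p = 0.429) on day 7. Fosl2, whose protein Fra-2 is a close relative of Fra-1, lay between 7.66 and 9.83 normalised CPM in all 8 libraries, with fold changes of -0.11 ± 0.15 and 0.14 ± 0.15 with S7 on days 3 and 7.

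The make-up of the Fos family followed these differences. On day 3, Fosl1 held 20.1% of the summed Fos-family FPKM (PCL-O), 26.0% (PCL-E), 50.4% (PCL-S) and 44.9% (PCL-SE). On day 7 it held 30.0%, 43.3%, 63.0% and 65.8% in the same order. The share of Fos was highest in PCL-O day 3 (43.2%) and lowest in PCL-SE day 7 (13.0%). The family sum was 21.9 FPKM in PCL-O and 32.3 in PCL-E on day 7, against 76.1 in PCL-S and 61.9 in PCL-SE. These sums are without TMM scaling, whose factors were 0.955 and 1.02 in PCL-O and PCL-E and 1.15 and 1.16 in PCL-S and PCL-SE. A higher factor lowers the normalised level, so part of the gap between these sums is one of scaling. Transcript shares say nothing of protein amounts.

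**Figure D2:**
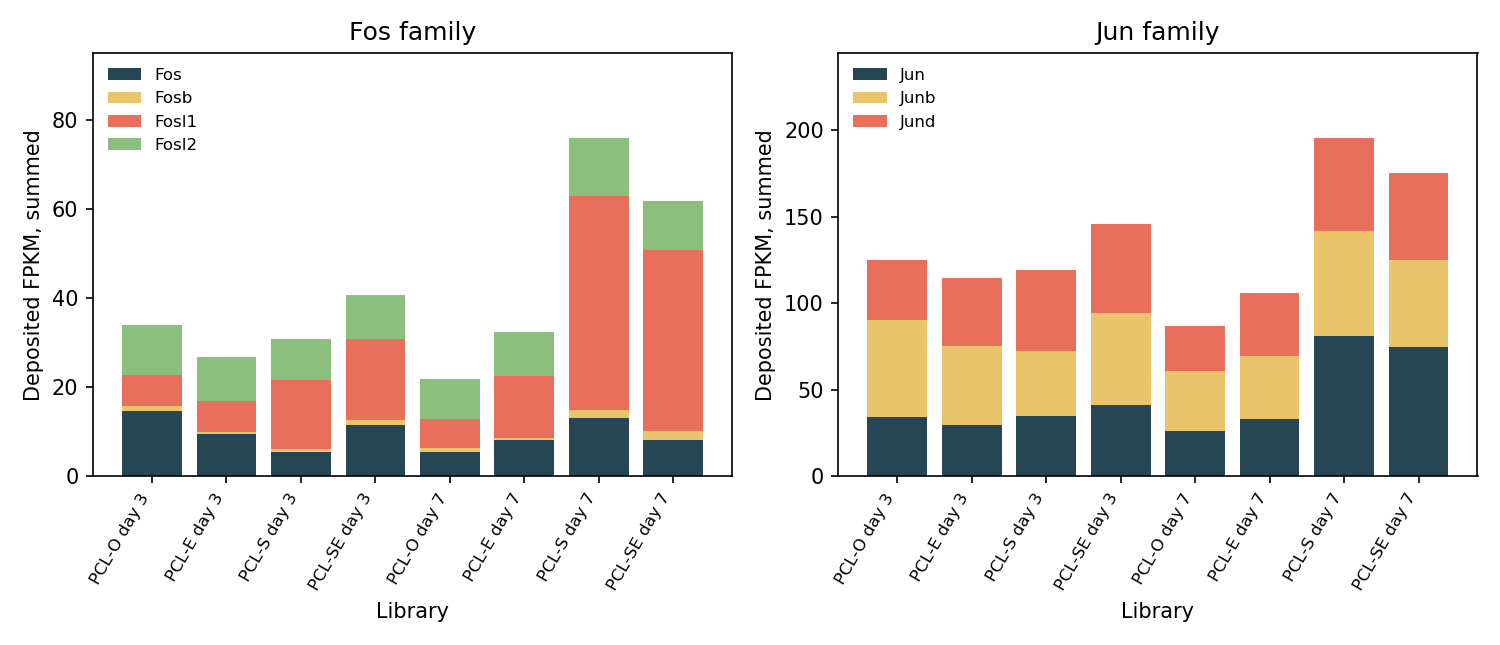
Deposited FPKM of Fos-family (left) and Jun-family (right) genes, stacked per library, with the y axis from 0. Fosl1 makes up 63.0% and 65.8% of the Fos family on day 7 in PCL-S and PCL-SE, and Jun 41.3% and 42.5% of the Jun family there.

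In the Jun family, Jun, the strongest transactivator of the family, had normalised CPM of 120 (PCL-O), 103 (PCL-E), 124 (PCL-S) and 144 (PCL-SE) on day 3. On day 7 the values were 89.8, 105, 230 and 212 in the same order. The libraries with S7 were higher on both days, narrowly on day 3 and by a wide gap on day 7. With S7 on day 7, Jun rose to 221 ± 12.8 from 97.6 ± 11.1 normalised CPM (n = 2 libraries each; log2 fold change 1.18 ± 0.13, adjusted p = 0.000678 by edgeR), and the call was kept without any 1 library. On day 3 the difference was 0.27 ± 0.13 (adjusted p = 0.227). Jun was the only 1 of 9 members whose difference with S7 itself differed between the days (0.91 ± 0.18 larger on day 7, edgeR adjusted p = 0.0133), where 28.7% of all genes did (13.2% higher, 15.5% lower). That call was lost without PCL-O day 3 (adjusted p = 0.0610), PCL-S day 3 (0.0723) or PCL-S day 7 (0.0600). For the other 8 members the difference in this fit was also above 0, from 0.09 for Jund to 1.29 for Fosb, and did not pass the test. Over the alternative runs it ranged from -0.25 to 1.12 for Egr1 and from -0.07 to 0.33 for Jund. For the remaining members it stayed above 0. It was largest for Junb (0.92) and Egr1 (1.12) without PCL-SE day 3, a fit with 1 library on a side of that day. Likewise, it was 1.18 for Fosl1 without PCL-E day 7 and 1.48 for Atf3 without PCL-SE day 7. Fosb passed with an S7 by E7 term added (1.30, edgeR adjusted p = 0.0432).

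Jund, known for steady rather than burst-like expression, had normalised CPM of 65.7 (PCL-O), 74.3 (PCL-E), 91.2 (PCL-S) and 97.9 (PCL-SE) on day 3. On day 7 it had 49.5, 63.2, 83.3 and 77.5 in the same order. The libraries with S7 lay above those without on both days, and the step was small. Jund rose with S7 by 0.43 ± 0.11 (log2, edgeR adjusted p = 0.0483) on day 3 and by 0.52 ± 0.11 (adjusted p = 0.00869) on day 7. The day 3 call was lost without any 1 day 3 library, where the fold change was 0.40 to 0.47. It was also lost under total-count scaling (edgeR adjusted p = 0.0746), with the E7 term omitted (0.0554) and with an E7 by day term added (0.0868). The day 7 call was lost without PCL-S day 7 (0.0672).

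Junb, often a brake on Jun activity, had normalised CPM of 113 (PCL-O), 91.1 (PCL-E), 76.8 (PCL-S) and 108 (PCL-SE) on day 3, and 68.7, 68.2, 101 and 83.5 in the same order on day 7. The groups overlapped on day 3 and did not on day 7. The day 7 difference with S7, 0.43 ± 0.19 (log2), did not pass the test (edgeR adjusted p = 0.0977). It did pass under total-count scaling (0.65, adjusted p = 0.0212), which moves the median of all genes by 0.22 in that comparison, and without PCL-S day 3 or PCL-SE day 3 (adjusted p = 0.0269 each). In FPKM, Jun held 25.8% to 31.0% of the Jun family in 6 libraries, and 41.3% and 42.5% on day 7 in PCL-S and PCL-SE.

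Atf3, a stress-inducible gene whose protein can repress as a homodimer and pairs with Jun proteins, had normalised CPM of 5.27 (PCL-O), 5.58 (PCL-E), 6.18 (PCL-S) and 10.0 (PCL-SE) on day 3. On day 7 it had 1.37, 1.90, 5.68 and 3.00 in the same order. Libraries with S7 were higher on each day. Atf3 rose with S7 on day 7 (4.34 ± 1.89 against 1.64 ± 0.379, n = 2 libraries each; log2 fold change 1.41 ± 0.39, adjusted p = 0.0230 by edgeR). The call was lost without PCL-O day 7 (adjusted p = 0.102) or PCL-S day 7 (0.119). On day 3 the difference was 0.57 ± 0.36 (adjusted p = 0.355).

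Egr1, the other archetype of the immediate early response, had normalised CPM of 285 (PCL-O), 220 (PCL-E), 136 (PCL-S) and 228 (PCL-SE) on day 3, and of 110, 67.1, 108 and 61.5 in the same order on day 7. PCL-S was the lowest library on day 3, and on day 7 the blank and PCL-S were close to each other and above both extracts with E7. The fold change with S7 was -0.41 ± 0.34 (log2, edgeR adjusted p = 0.479) on day 3 and -0.07 ± 0.34 (adjusted p = 0.882) on day 7. Over 15 alternative runs, the day 3 value ranged from -1.19 to 0.18, so its direction depended on the run. The -1.19 came without PCL-SE day 3, which leaves PCL-S as the only library with S7 on that day.

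**Figure D3:**
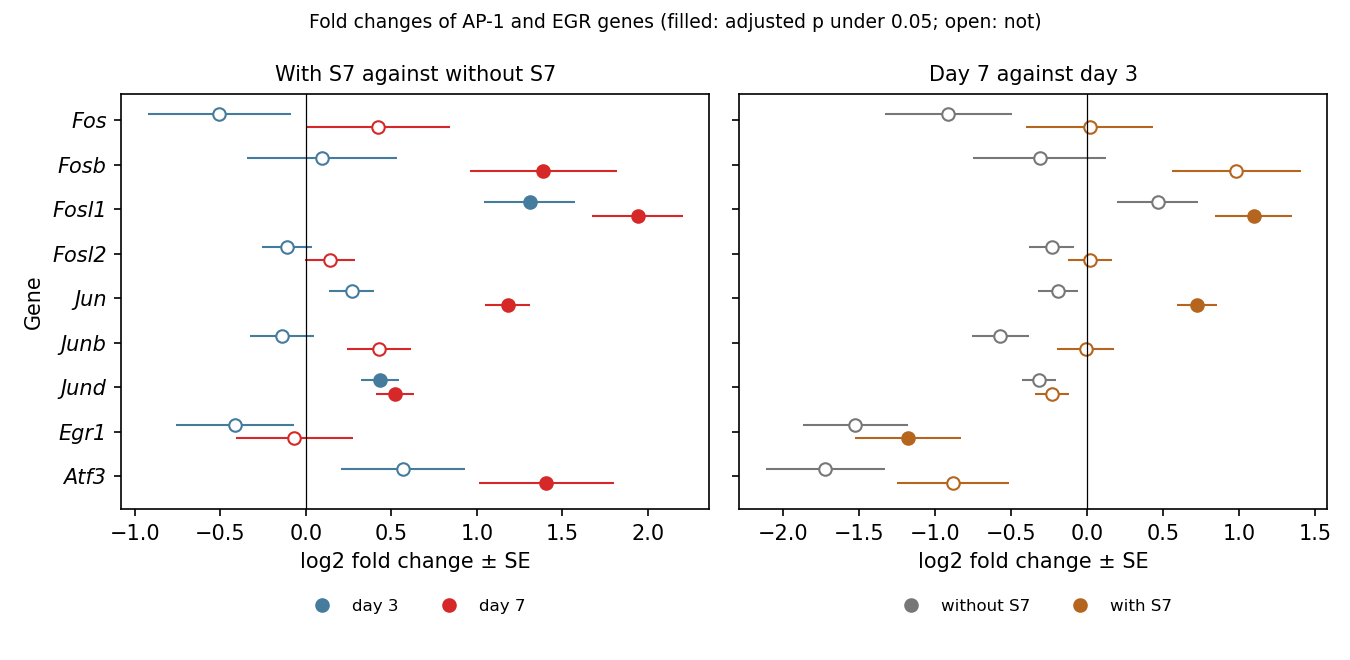
Log2 fold changes (x axis, points) with their SE (lines) for the 9 genes (y axis), with S7 against without S7 on each day (left) and day 7 against day 3 without and with S7 (right). Filled points passed an adjusted p of 0.05 (edgeR). Fosl1 with S7 on day 7 lies farthest to the right at 1.94, and Egr1 lies below 0 between days on both sides.

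The course from day 3 to day 7 was compared within the extracts without S7 and within those with it. With S7, Fosl1 rose by 1.10 ± 0.25 (log2, edgeR adjusted p = 0.0111) and Jun by 0.72 ± 0.13 (adjusted p = 0.00400), while Egr1 fell by 1.18 ± 0.35 (adjusted p = 0.0282). These 3 of 9 stand beside 50.7% of all genes called (24.4% higher, 26.4% lower). The Jun call was kept without any 1 library. The Fosl1 call was lost without PCL-S day 3 (adjusted p = 0.0693), PCL-SE day 3 (0.0747) or PCL-S day 7 (0.102). The Egr1 call was lost under total-count scaling (-0.87, adjusted p = 0.0612) and without PCL-O day 3 (0.0537), PCL-E day 3 (0.0535), PCL-SE day 3 (0.113), PCL-S day 7 (0.0519) or PCL-SE day 7 (0.203). Total-count scaling moves the median of all genes by 0.31 in that comparison. Fosb, at 0.98 ± 0.42, passed only under total-count scaling (1.29, adjusted p = 0.0311), with an S7 by E7 term added (0.0161) and without PCL-SE day 3 (0.0368). Atf3, at -0.88 ± 0.37, passed only without PCL-S day 7 (-1.60, adjusted p = 0.0132), and Jund, at -0.23 ± 0.11, only without PCL-O day 7 (0.0425) or PCL-E day 7 (0.0493).

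Without S7, 0 of the 9 passed the test by edgeR, beside 1.61% of all genes (0.671% higher, 0.935% lower). By edgeR, 4 members had an unadjusted p under 0.05, as did 2514 of all 15942 genes tested. DESeq2 called 2 members, beside 832 of all genes. Atf3 had a log2 difference of -1.72 ± 0.39 (edgeR adjusted p = 0.0977, DESeq2 adjusted p = 0.00252) and Egr1 of -1.52 ± 0.35 (edgeR adjusted p = 0.0986, DESeq2 adjusted p = 0.0224). In edgeR, Egr1 passed without PCL-S day 3 (adjusted p = 0.0318) or PCL-SE day 3 (0.0335), and Fosl1 (0.91) without PCL-O day 7 (0.0173). The other 2 with an unadjusted p under 0.05 were Junb (-0.57 ± 0.19) and Jund (-0.32 ± 0.11). Without S7, day 7 lay below day 3 without overlap for 6 of 9 members, as for 21.6% of all genes (42.6% in either direction). With S7, 3 of 9 lay higher and 3 lower without overlap, beside 39.7% and 41.8% of all genes (81.5% in either direction). Over all 4 extracts, Egr1 was the only 1 of 9 whose day 3 and day 7 values did not overlap (12.7% of all genes in either direction, 6.63% with day 7 lower), at 217 ± 61.1 against 86.8 ± 26.1 normalised CPM (mean ± SD, n = 4 libraries each).

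E7 was compared over both days, PCL-E and PCL-SE against PCL-O and PCL-S. Of the 9 members 0 passed the test by edgeR, 0 had an unadjusted p under 0.05, and DESeq2 called 0 of them. Of all 15942 genes tested 0 were called (0.00%), 589 had an unadjusted p under 0.05, and DESeq2 called 1. The members' differences ran from -0.30 ± 0.25 (log2) for Egr1 to 0.23 ± 0.18 for Fosl1, and Jun stood at 0.03 ± 0.09. A miss of the threshold does not show that the extracts acted alike.

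Single extracts within a day have 1 library per side, so their ratios carry no test. On day 3, PCL-S was more than 2-fold below PCL-O for Fos (-1.25, log2 ratio with 2 CPM added) and Egr1 (-1.05) and above it for Fosl1 (1.10), where 4.58% of all genes differed by 2-fold. PCL-SE was above PCL-O on that day for Fosl1 (1.30; 4.58% of all genes), and above PCL-E for Fosl1 (1.29; 3.14%). On day 7, PCL-S was above PCL-O for Fosl1 (2.42), Jun (1.34) and Atf3 (1.19), beside 13.6% of all genes, and PCL-SE for Fosl1 (2.19) and Jun (1.22), beside 12.6%. PCL-SE was above PCL-E on day 7 for Fosl1 (1.30) and Fosb (1.15), beside 7.88%. In 4 pairs, PCL-E against PCL-O (0.370% of all genes on day 3 and 1.59% on day 7) and PCL-SE against PCL-S (0.207% and 0.326%), 0 members differed by 2-fold with 2 CPM added. The values nearest to it were 0.93 for Fos in PCL-SE against PCL-S on day 3 and 0.89 for Fosl1 in PCL-E against PCL-O on day 7. With no CPM added, that Fos pair was past 2-fold (20.8 against 9.99 normalised CPM). So was Fosb in PCL-E against PCL-O on day 3 (1.94 against 4.37).

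Between days, PCL-O was lower on day 7 for Egr1 (-1.35), Fos (-1.27) and Atf3 (-1.11), beside 1.61% of all genes that differed by 2-fold. PCL-E was lower for Egr1 (-1.68; 1.81% of all genes), and PCL-SE for Egr1 (-1.86) and Atf3 (-1.26; 9.74%). PCL-S stood apart in this respect, with Egr1 at -0.33 and Atf3 at -0.09, Fos at 0.82 and Fosl1 past 2-fold at 1.25 (10.8%). With no CPM added, Atf3 in PCL-E (1.90 on day 7 against 5.58 on day 3) and Fosb in PCL-S (6.31 against 2.42) were also past 2-fold. The comparisons with PCL-O share that library, so their ratios are not independent of each other.

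**Figure D4:**
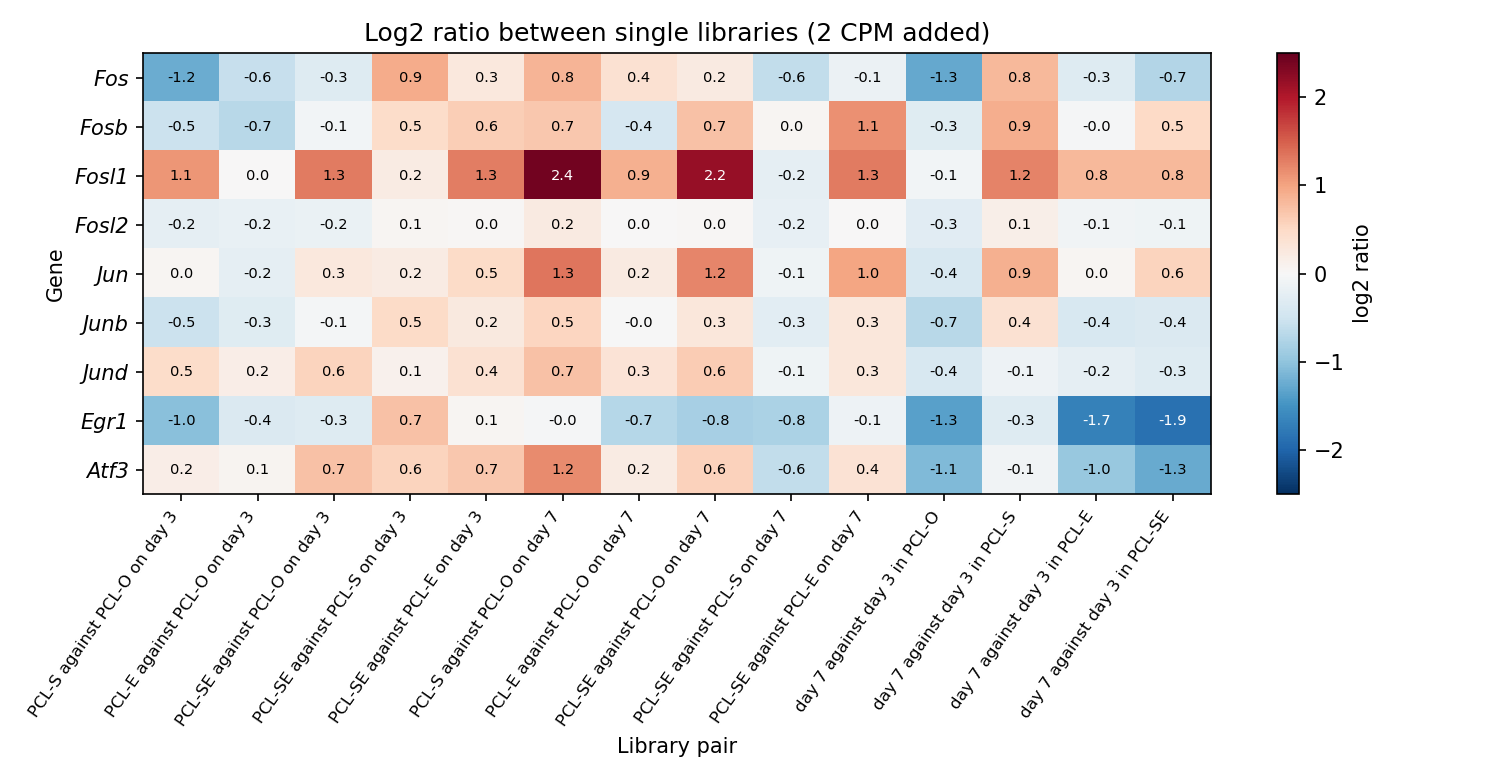
Log2 ratios of normalised CPM with 2 added (colour and printed value) for the 9 genes (rows) in 14 pairs of single libraries (columns). The darkest red cells are Fosl1 in PCL-S and PCL-SE against PCL-O on day 7, at 2.42 and 2.19, and the darkest blue is Egr1 between days in PCL-SE, at -1.86.

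Across the 8 libraries, the members did not share 1 pattern. Jun and Fosl1 had a Pearson r of 0.93 (log2 normalised CPM with 2 added), Fos and Junb 0.90, and Egr1 and Fosl1 -0.51, where the points share the same extracts and days and are given as a description. Among 10221 genes, the nearest pattern to Fosl1 was that of Praf2 (r = 0.997), followed by Fkbp8 and Ldha, a lactate dehydrogenase subunit (both 0.993). Nearest to Jun was Tbrg4 (0.992), and to Jund Mapk3 (0.992), which encodes ERK1, and Klf4 (0.987), itself a rapidly induced factor. Nearest to Egr1 were Degs1 (0.965) and Btg2 (0.963), an antiproliferative immediate early gene, to Junb the MAP kinase phosphatase gene Dusp1 (0.921), to Fos Junb (0.903), and to Fosl2 Zfp36 (0.882), a gene for an RNA-decay factor. Nearest to Atf3 were Epb41l1 (0.942) and the immediate early gene Csrnp1 (0.940), and to Fosb Wrap73 (0.967).

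Genes that act beside the members were read from lists, whose counts with S7 stand beside 14.0% of all tested genes called on day 3 and 51.0% on day 7, with medians of 0.00 and -0.03 (log2). The calls over all genes moved with the libraries too. Without PCL-O day 7 or PCL-E day 7, more of all genes were called with S7 on day 3, and without PCL-S day 3 fewer. Fewer were called with S7 on day 7 without PCL-S day 7, and between days with S7 without PCL-SE day 3. Of 38 other immediate early genes tested, 7 rose and 6 fell with S7 on day 3 (median 0.23, log2), and 14 rose and 8 fell on day 7 (median 0.28). Myc, a growth regulator, rose on both days (1.34 ± 0.13 and 2.09 ± 0.13, edgeR adjusted p = 0.00192 and 0.000130). On day 3, Klf10, a TGF-beta-induced factor, rose (0.86), while Gadd45b, a stress sensor, and Hbegf, an EGF-receptor ligand, fell (-1.47 and -1.57). On day 7, Cebpb (2.22), a zipper factor of adipocyte and inflammatory genes, and Nfkbia (1.39), the inhibitor of NF-kappaB, rose, and Zfp36l1 (-0.95), an RNA-decay factor, fell. The count of called genes was 2 in place of 13 on day 3 without PCL-S day 3, when the calls of Klf10 and Hbegf were lost (adjusted p = 0.0606 and 0.0697), and 13 in place of 22 on day 7 without PCL-S day 7. Without S7, 1 of the 38 genes rose from day 3 to day 7 and 2 fell (edgeR), beside 1.61% of all genes. Nr4a1, an orphan nuclear receptor, Egr3, a relative of Egr1, and Srf, the serum response factor, were lower there without passing. In PCL-O, Nr4a1 went from 32.2 to 12.1 normalised CPM and Egr3 from 1.77 to 0.572. In PCL-E, Nr4a1 went from 25.9 to 7.66 and Egr3 from 1.21 to 0.164. Egr3 was also scarce on day 7 with S7, at 0.422 (PCL-S) and 0.115 (PCL-SE). From day 3 to day 7 with S7, 10 rose and 13 fell, beside 50.7% of all genes called (24.4% higher, 26.4% lower). Among those that fell were Egr3 (-3.65 ± 0.55, edgeR adjusted p = 0.00200), Nr4a1 (-1.67) and Srf (-0.53). That count was 6 in place of 23 without PCL-SE day 3.

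Upstream of AP-1, MAP kinase and SRF/TCF signalling genes had 0 of 29 called on day 3 by edgeR, where 8 were called without PCL-O day 7 or PCL-E day 7. On day 7, 6 rose and 6 fell with S7 (median 0.03), among them Rps6ka1 (1.51), an ERK-activated kinase, and Map2k7 (0.64), a kinase that activates JNK, which rose. Rps6ka3 (-0.64), a kinase of the same family as Rps6ka1, fell. Of 14 genes listed as targets or feedback inhibitors of ERK signalling, 0 rose and 1 fell on day 3 (Phlda1, -0.64), and 5 rose and 2 fell on day 7. Dusp5 (2.14 ± 0.16), a nuclear ERK phosphatase, rose, and Spry1 (-1.85 ± 0.16), an inhibitor of receptor tyrosine kinase signalling, fell (edgeR adjusted p = 0.000196 and 0.000287). Spry2 (0.62) and Spred2 (0.49) rose, with both calls lost without PCL-S day 7 and that of Spry2 also without PCL-O day 7. Without PCL-S day 7, the counts on day 7 were 5 in place of 12 for the kinase list and 2 in place of 7 for the ERK list, and the Phlda1 call was lost without any 1 day 3 library and with an E7 by day term added. Without PCL-O day 7 or PCL-E day 7, 5 in place of 1 of the ERK list were called on day 3.

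Among 18 other bZIP genes whose proteins can pair with or compete with AP-1, 0 rose and 2 fell on day 3 (Mafk, -0.60, and Creb3, -0.44), and 3 rose and 7 fell on day 7 (median -0.15). Creb5 (-2.29), Jdp2 (-0.80), a repressor that pairs with Jun, and Atf6 (-0.59), an unfolded-protein sensor, fell, and Ddit3 (0.77), a stress factor also called CHOP, rose. The day 7 count was 5 in place of 10 without PCL-S day 7, and both day 3 calls were lost without any 1 day 3 library, while 4 were called on day 3 without PCL-O day 7 or PCL-E day 7. Of the EGR co-repressor genes, Nab2 rose on both days (0.57 ± 0.10 each), with the day 3 call lost without any 1 day 3 library, and Nab1 fell on day 7 (-0.79 ± 0.19), a call lost without PCL-S day 7 (adjusted p = 0.109).

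Downstream, 23 AP-1 target genes were tested, 3 of which rose and 2 fell with S7 on day 3, and 7 rose and 12 fell on day 7 (median -0.32). Lgals3, which encodes galectin-3, rose on both days (1.72 ± 0.13 and 2.72 ± 0.13, edgeR adjusted p = 0.00129 and 8.8e-05). On day 3, Mmp3 (2.61), a matrix protease gene, and Itga5 (0.96), an integrin subunit gene, rose, and Lif (-2.08), a cytokine gene, fell, with the Mmp3 call lost without PCL-S day 3 (adjusted p = 0.0671) or PCL-E day 3 (0.0541). The day 3 count was 3 in place of 5 if either PCL-S day 3 or PCL-E day 3 was omitted, and 10 if either PCL-O or PCL-E of day 7 was. Ibsp, Bglap and Cd44 of this list are also among the marker genes above. The matrix genes Col1a2 (-2.18) and Fn1 (-1.57) and the protease inhibitor gene Timp1 (-0.80) fell on day 7. Of 13 heat shock genes, 0 rose and 1 fell on day 3 (Hsph1, -1.25, lost without any 1 day 3 library), and 5 rose and 5 fell on day 7 (median -0.18), with Bag3 (1.15) and Hspe1 (0.86) higher and Hspa5 (-1.29) and Hsph1 (-1.64) lower. The day 7 count was 6 in place of 10 without PCL-S day 7. With E7, 0 genes of any of these 7 lists passed the test by edgeR.

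**Figure D5:**
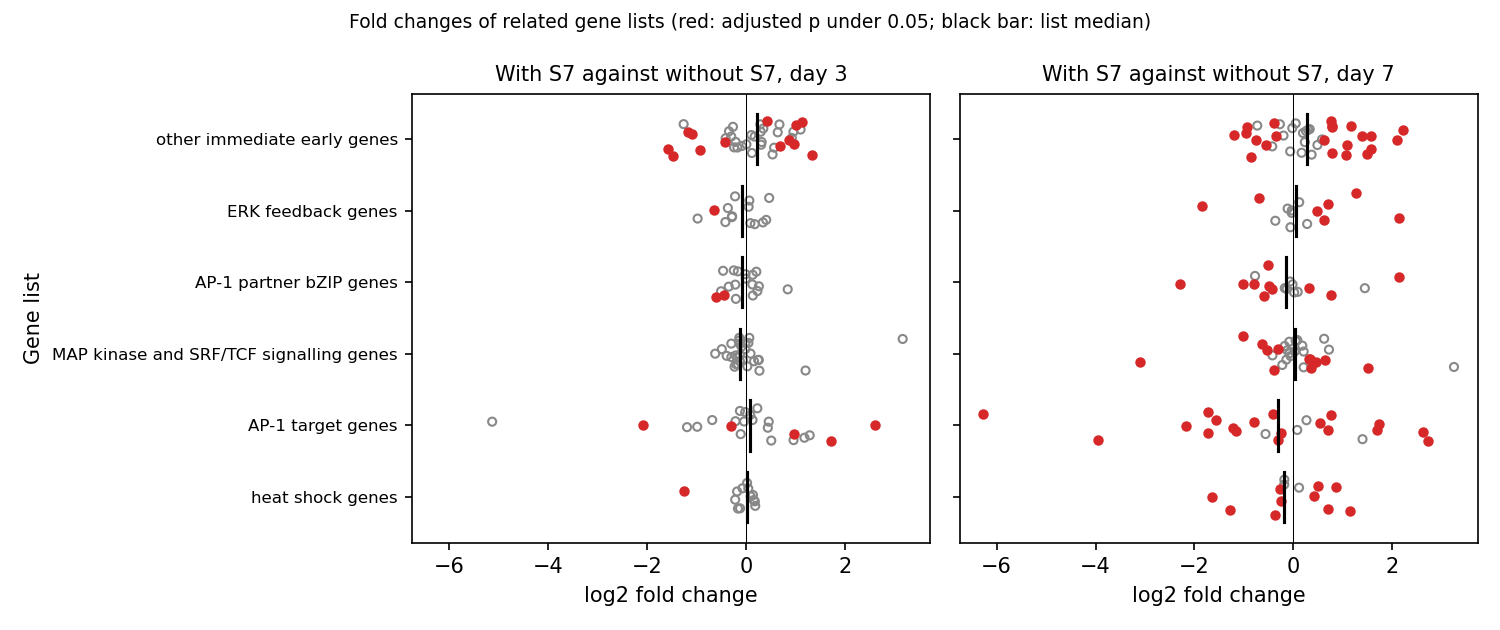
Log2 fold changes (x axis) with S7 against without S7 on day 3 (left) and day 7 (right) for genes of 6 lists (y axis), 1 point per tested gene, red where the adjusted p was under 0.05 (edgeR), with a black bar at each median. Medians on day 7 run from -0.32 for AP-1 target genes to 0.28 for other immediate early genes.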

How the data were processed

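The count table holds whole-number counts per gene and library as deposited, per the file headers, and FPKM, per the file headers scaled by the authors to gene length and sequenced fragments. No source used here names the aligner or the counting tool. In the table, 10 lines were annotation fragments and were left out. The members and gene lists were chosen with earlier results of these data known, as were the terms of the model.

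Counts were filtered with filterByExpr, TMM-scaled and fitted with edgeR 4.0.16 (R 4.3.3) with terms S7, day, S7:day and E7 over all 8 libraries (15942 genes, with 3 degrees of freedom left and a biological coefficient of variation of 0.137), with quasi-likelihood F-tests, Benjamini-Hochberg adjustment over all tested genes and a threshold of 0.05. The fit was tested on simulated data. SE is that of the log2 fold change. Ratios of single libraries use normalised CPM with 2 added. FPKM were used for levels between genes and for family sums and shares.

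Alternatives were DESeq2 1.42.0, RLE size factors, total-count scaling, no low-count filter, other terms, each library left out and, for ratios, 0.5 CPM added. Every member is named. Of each list, at most 4 called genes with the smallest p per comparison could be named (1 such gene is not reported here), and for each member the 3 genes with the highest r among those with a mean of at least 5 CPM. Tables and figures used Python 3.11.15, pandas 2.3.3 and matplotlib 3.10.9.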

Additional observations from a re-analysis of the deposited data

Results flagged for a closer look

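The difference of Jun with S7 against without S7 was larger on day 7 than on day 3 by 0.91 (log2, edgeR interaction adjusted p = 0.0133), from 0.27 on day 3 to 1.18 on day 7. In the 2 libraries with S7, Jun stood at 124 and 144 normalised CPM on day 3 and at 230 and 212 on day 7, and in the 2 without S7 at 120 and 103 on day 3 and 89.8 and 105 on day 7. Leaving out PCL-O day 3, PCL-S day 3 or PCL-S day 7 ended the call.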

How the results depend on the processing

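No called fold change of a member changed direction under any alternative run. The count of members called with S7 on day 3 was 1 in place of 2 under total-count scaling, with the E7 term omitted and with an E7 by day term added. It was 2 in place of 1 for the S7 difference between days with an S7 by E7 term added, and 2 in place of 0 for day 7 against day 3 without S7 in DESeq2. Over all 15942 genes, these 2 fits called 4232 in place of 4578 and 832 in place of 256. With each library left out in turn, the counts ran from 0 to 2 for S7 on day 3, from 2 to 6 for S7 on day 7, from 0 to 3 for the difference between days, from 2 to 4 for day 7 against day 3 with S7, from 0 to 1 without S7, and stayed at 0 for E7. The number of all genes called also changed from fit to fit in every comparison, for E7 only in DESeq2 (1 in place of 0). The causes were not tested. Of 369 fold changes of members under the other alternatives, 5 lost a call and 6 gained one. Of 252 ratios between single libraries, 44 moved under another pseudocount or scaling and 0 changed sign among those past 2-fold. Crossings of the 2-fold mark were not counted. No paired analysis was possible by replicate number because the labels carry none. The days can be compared within extracts, since the S7 by E7 term gives each extract its own level: 4 members in place of 3 were then called between days with S7 (Fosb added, adjusted p = 0.0161) and 0 without S7. Each call rests on 2 libraries a side. The lowest counts were 43 for Atf3 and 64 for Fosb.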
